A study of Drosophila melanogaster with 8 samples.

Results

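The noncoding RNAs recovered with the related RNA-binding proteins Sex-lethal (SXL) and Sister-of-Sex-lethal (SSX) are described here, as far as the authors listed them as enriched. They were taken from the union of the authors' lists for SXL against GFP and for SSX against GFP as all genes whose biotype was not protein-coding and whose name did not start with mt: or roX. These were 36 of 956 listed genes, 33 annotated there as lincRNA and 3 as pseudogene, out of 17559 genes in the full tables. The 36 were thus chosen by measured values: the lists hold genes whose log2 fold change over GFP passed 2 with an adjusted p below 0.001, and values against GFP are given only as a description.

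RNA was co-purified from SL2 cells, a male Drosophila melanogaster line, transfected with SXL (2 libraries), SSX (3 libraries) or GFP (2 libraries). In all 7 IP libraries the protein carried a FLAG and triple HA tag and was collected with the same antibody against FLAG, so the GFP IP measured RNA recovered with the tag and antibody alone. SXL is the master regulator of female development and is not normally made in male cells. The transcripts of both proteins were high in their own IPs, with means of 33893 normalized counts for Sxl with SXL, 4870 with SSX and 468 with GFP, and for ssx 507 with SXL, 20862 with SSX and 345 with GFP. An input library was not analysed here, so recovery of Sxl and ssx cannot be told apart from their levels in the transfected cells. Of 9 hemocyte markers chosen to check the line, only the GATA factor srp had a name in the tables used here, with normalized counts averaging 1815 ± 5.84 for SXL (SD, n = 2), 5302 ± 759 for SSX (SD, n = 3) and 955 ± 70.3 for GFP (SD, n = 2). As a listed gene srp was itself chosen by enrichment, so these values do not check the line. The lack of a name for the other markers does not show that the cells lacked them.

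SXL binds runs of uridines in RNA through RNA recognition motifs, and by this it controls splicing and translation of its targets. Long noncoding RNAs (lncRNAs) are transcripts without a long open reading frame. Some are precursors from which microRNAs are cut, some run antisense to coding genes, and some gather RNA-binding proteins in the nucleus. Small nuclear RNAs (snRNAs) are short, stable RNAs of the splicing machinery or of related particles. A RIP library holds fragments of whatever RNA is attached to the protein or to another molecule bound to it, so it does not separate direct from indirect contact.

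The GFP libraries were far shallower than the others. Reads over the 956 listed genes numbered 3266209 and 3604413 for SXL, between 3383720 and 4429899 for SSX, and 20859 and 27467 for GFP. Normalized counts, the reads divided by the authors' factor for each library, rise by 0.300 and 0.278 per read with SXL, by 0.466 to 0.535 with SSX, and by 11.3 and 8.30 with GFP. The noncoding RNAs took 11.02% and 3.25% of the listed reads in SXL libraries 2 and 3, 1.32% to 1.80% in the SSX libraries and 1.93% and 2.16% in the GFP libraries. Without snRNA:LU, a single short RNA, these shares were 1.85% and 2.21% with SXL, 1.29% to 1.66% with SSX and 1.35% to 1.405% with GFP. Libraries are named by their column numbers, which for SXL and GFP do not follow the numbers in the sample titles.

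Of the 36 RNAs, 12 were in the SXL list and 32 in the SSX list, with 8 in both, 4 in the SXL list alone and 24 in the SSX list alone. They made up 6.03% of the 199 genes listed for SXL and 3.38% of the 947 listed for SSX. Among all genes tested, 2.78% met the list rule for SXL and 10.5% met it for SSX, and nothing is read from these counts since the rule set them. An adjusted p below 0.05 with a higher level than GFP was met by 22 of the 36 with SXL, where 16.4% of genes met it, and by 32 with SSX, where 26.2% did. In the authors' deposited tables the median log2 fold change of the 36 was 1.93 with SXL and 3.54 with SSX, beside 0.09 and 0.44 for all genes tested. These counts and medians come from the contrasts the rule used, so nothing is read from them either. Just inside the SXL list lay CR34335 (2.15 in the authors' deposited table). Outside it, with higher values but larger p-values in the authors' deposited table, lay CR43963 (2.64, adjusted p = 0.0041) and CR45054 (2.18, adjusted p = 0.0013). For SSX the authors' deposited table had CR45973 just inside (2.25) and CR43701 outside with 2.30 (adjusted p = 0.055).

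Few GFP reads stood behind these fold changes. Over both GFP libraries the median of the 36 RNAs was 4.5 reads; 3 RNAs had 0 reads (CR43701, CR45623 and CR44566), 14 had 1 to 3 reads and 9 had 10 or more. CR43701 was at least 8.80-fold higher with SXL than a floor of 3 reads summed over both GFP libraries. CR45623 was at least 6.23-fold higher with SSX than the same floor. For CR44619, with 1 GFP read, SSX over GFP came to 75.3 (95% counting interval 13.5 to 2976). For CR45139, also with 1 GFP read, the ratio to GFP was 30.2 with SXL (95% counting interval 5.41 to 1194) and 76.3 with SSX (13.7 to 3017). Floors and intervals cover counting error only.

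By annotation the group is mixed. RefSeq classes 23 of the 36 as lncRNA, 7 as antisense RNA, 3 as pseudogene, 1 as snRNA (snRNA:LU) and 1 as ncRNA with no further class (CR43701). The last, pncr013:4, is now the protein-coding gene CG33941 there. The spans were 93 to 21710 bases with a median of 2144, against a median of 7667 for the 920 listed coding genes. On the X lay 13 of the 36 (36.1%, exact 95% interval 20.8 to 53.8) and 33.6% of the listed coding genes; 7 were on 3R, 6 on 3L, 4 on 2L, 3 on 2R and 3 on chromosome 4. Coordinates are those of build BDGP6 in the authors' lists, and spans cover introns.

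The comparison of SXL with SSX asks which of the proteins carried more of each RNA. The rule did not use it directly. For all of the 36 but CR44566, however, its log2 is the difference of the 2 log2 values over GFP that the rule used. For RNAs of 1 list alone its direction and p-values are therefore not free of the choice. At an adjusted p below 0.05, the authors' deposited table placed 32 of the 36 on one side or the other, as it did 37.4% of all 9500 genes tested. The 32 divide into 5 that were higher with SXL, where 11.5% of genes were, and 27 that were higher with SSX, where 25.9% were. The 5 are 13.9% of the group, a share near that of all genes. The 27 are 75%, and 32 of the 36 had been chosen for enrichment with SSX, which pushes values in this direction. The median log2 SXL over SSX was -1.72 for the 36, -1.23 for listed coding genes and -0.23 across every tested gene of the authors' deposited table. The direction mostly followed the list an RNA came from: all 4 RNAs of the SXL list alone were higher with SXL, and of the 24 of the SSX list alone 22 were higher with SSX and 2 were not called in the authors' deposited table. Of the 8 in both lists, for which the rule leaves the direction more open, 1 was higher with SXL, 5 were higher with SSX and 2 were not called.

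By library, 6 of the 36 had both SXL values above all 3 SSX values and 29 had both below, against 1.26% and 94.6% of listed genes, and 1 (CR42549) overlapped. On the deposited counts edgeR placed 5 on the SXL side, beside 1.26% of the listed genes, and 28 on the SSX side, beside 92.7%. The listed genes, which include the 36, were all chosen by enrichment over GFP, so these shares are not free of the choice.

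**Figure D1:**
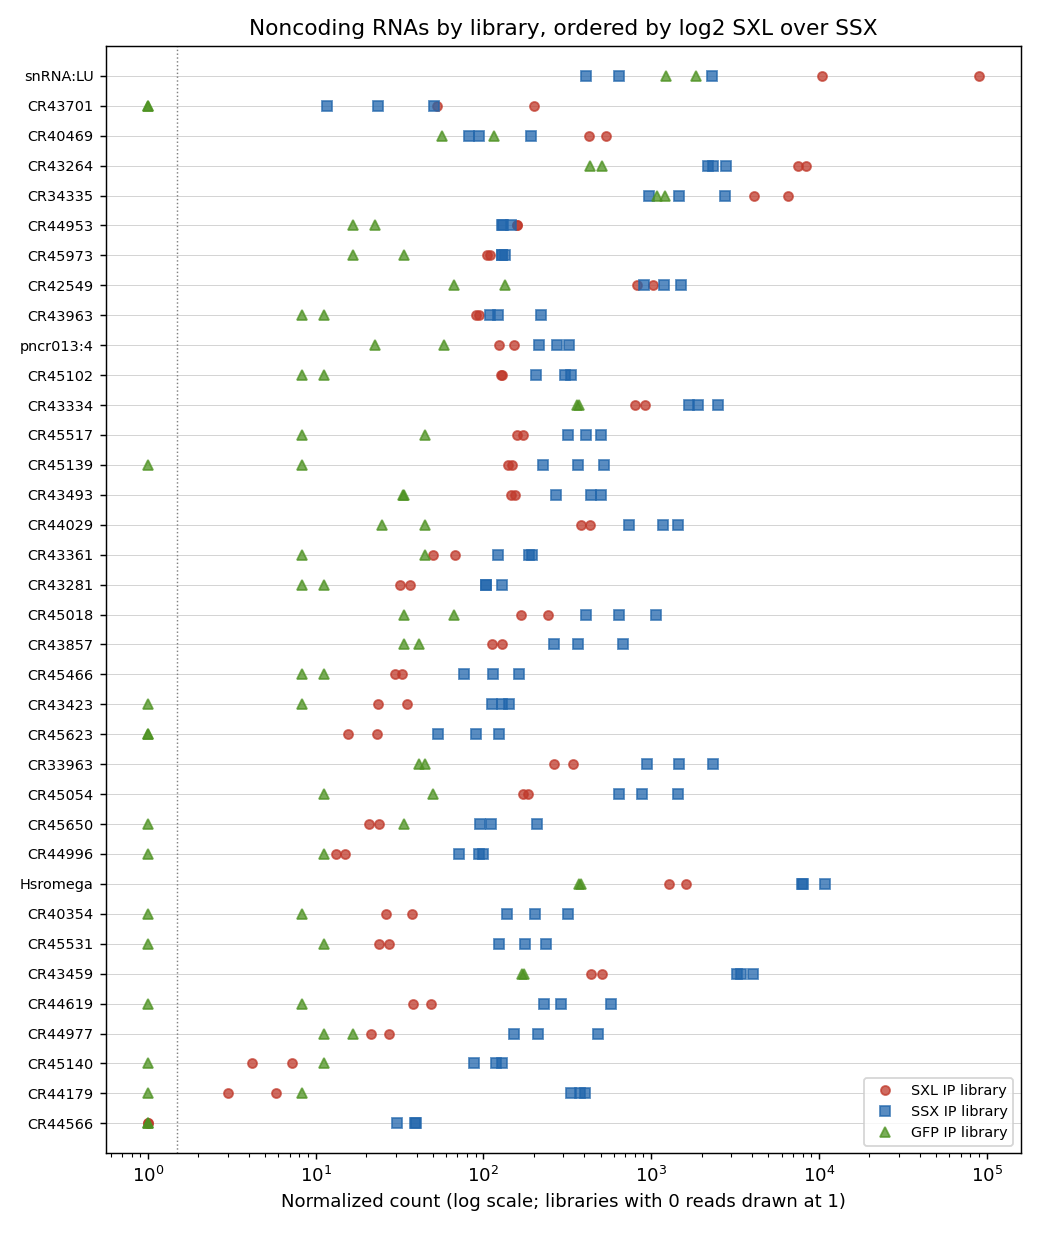
Normalized counts (log scale) of the 36 noncoding RNAs, 1 point for each SXL (red circles), SSX (blue squares) and GFP (green triangles) IP library, from the highest log2 SXL over SSX at the top to the lowest. Libraries with 0 reads are drawn at 1, left of the dotted line; snRNA:LU at the top reaches 89892 with SXL, and CR44566 at the bottom has 0 reads in both SXL libraries.

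The 5 RNAs that were higher with SXL were the 5 shortest, with spans of 93 to 318 bases in the authors' lists. For snRNA:LU and CR34335 RefSeq gives a different span. None of the other 31, of 380 bases and longer, was called higher with SXL, and 27 of them were called higher with SSX. Among the 920 listed coding genes, 0.435% were on the SXL side and 91.1% on the SSX side in the authors' deposited table, and 27 of 31 is near the share on the SSX side. The coding genes came from the same lists, and 947 of all 956 listed genes were in the SSX list. Both shares of the coding genes therefore largely follow from the choice. This length boundary was seen in the data and was not tested. As 4 of the 5 entered through the SXL list alone, their direction largely follows from the choice.

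The snRNA snRNA:LU (FBgn0263847, 2L, 3046746 to 3046904, plus strand), which lies within FASN2, a fatty acid synthase gene, and 1796 bases from snRNA:U5:23D, was the most abundant of the 36. Its normalized counts were 89892 and 10432 in SXL libraries 2 and 3, 2295, 641 and 411 in SSX libraries 1, 2 and 3, and 1230.1 and 1851 in GFP libraries 2 and 3. Both SXL values lay above all others, the SSX and GFP ranges overlapped, and the SXL libraries differed 8.62-fold from each other. In SXL library 2 it took 83.2% of all reads of the 36 RNAs, and in library 3 it took 32.0%. In the authors' deposited table its log2 SXL over SSX was 4.56 (SE 0.94, adjusted p = 1.2e-05). The edgeR log2 on the deposited counts was 5.49 when both SXL libraries entered and 3.22 when library 2 was left out.

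CR43264 (FBgn0262945, X, 5831898 to 5832215, minus strand) was the steadiest of the short RNAs and the only one in both lists. It had normalized counts of 7484 and 8339 with SXL, 2806, 2334 and 2182 with SSX, and 508 and 432 with GFP. The 3 groups did not overlap, and the log2 SXL over SSX was 1.68 (SE 0.18, adjusted p = 2.1e-18) in the authors' deposited table. With any single library left out its edgeR log2 stayed between 1.62 and 1.81. It lies within the span of the coding gene CG15765, and a tRNA pseudogene, tRNA:Glu-CTC-6-1Psi, starts 82 bases beyond its right end.

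CR34335 (FBgn0085364, X, 3545862 to 3546110, minus strand) was abundant in the GFP libraries as well. Normalized counts were 4130.4 and 6511 with SXL, 2765, 1465 and 973 with SSX, and 1208 and 1079 with GFP. The SXL values were above all others, and the SSX values spanned the GFP values. Its log2 SXL over SSX was 1.57 (SE 0.38, adjusted p = 0.00022) in the authors' deposited table.

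CR40469 (FBgn0058469, X, 122493 to 122706, plus strand), which overlaps no other RefSeq gene, had normalized counts of 536 and 426 with SXL, 192, 94.2 and 81.8 with SSX, and 56.4 and 116 with GFP. As with CR34335, SXL stood apart while SSX and GFP overlapped. The authors' deposited table gave a log2 SXL over SSX of 1.92 (SE 0.37, adjusted p = 2.9e-06). The shortest RNA, CR43701 (FBgn0263839, 3L, 1488739 to 1488831, plus strand), lies within the coding gene stet, 74 bases from snoRNA:Psi28S-2622, and had normalized counts of 199 and 53.1 with SXL, 50.8, 23.7 and 11.8 with SSX, and 0 in both GFP libraries. SXL library 3 was close to SSX library 1, so the groups were barely apart. The authors' deposited table put the log2 SXL over SSX of CR43701 at 1.96 (SE 0.63, adjusted p = 0.007), while the edgeR value was 0.87 without SXL library 2 (adjusted p = 0.069).

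**Figure D2:**
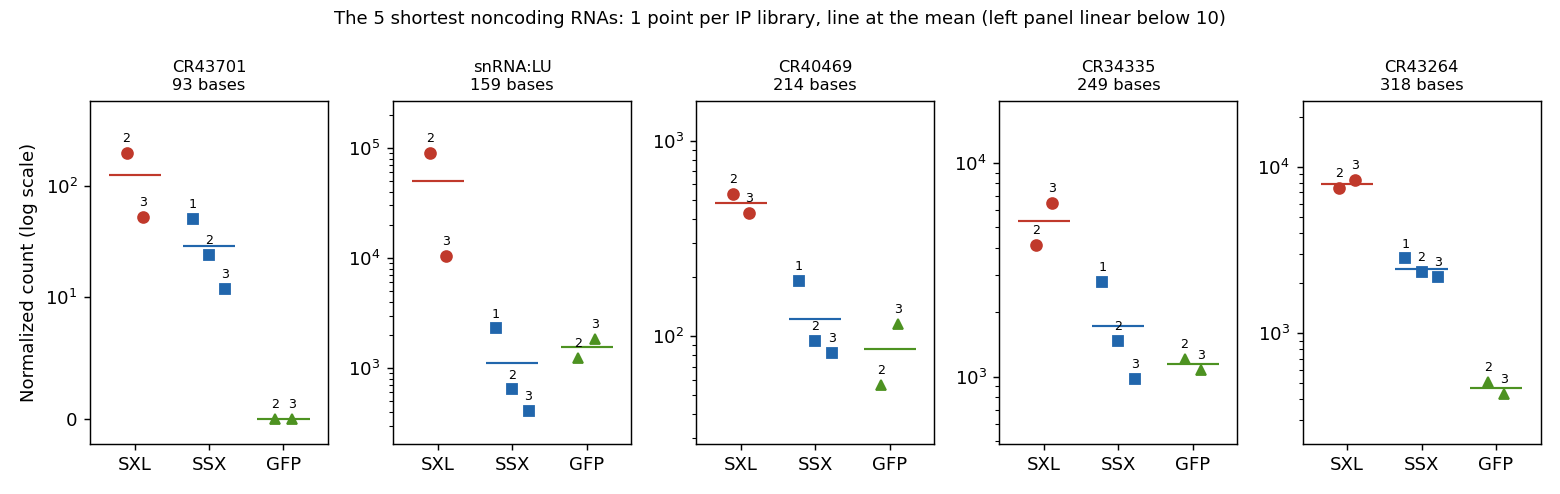
Normalized counts (log scale; the CR43701 panel is linear below 10) of the 5 shortest noncoding RNAs, 1 point for each IP library with its column number, and a line at the mean of the group. In every panel both SXL points lie above the 3 SSX points, and SSX library 1 is the highest SSX library.

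The short RNAs also differed among libraries of the same protein. All 5 were highest in SSX library 1 and lowest in SSX library 3, with library 1 over library 3 from 1.29-fold for CR43264 to 5.58-fold for snRNA:LU. Among the 31 longer RNAs library 3 was above library 1 for 27, with a median fold of library 1 over library 3 of 0.612. Across the 36 RNAs, which share libraries and depth, length and the log2 of library 1 over library 3 had a Spearman rho of -0.30, and across the 920 listed coding genes of -0.22. For SSX library 1 over library 2 these were -0.33 and -0.05, and for SXL library 2 over library 3, over 35 RNAs and 910 coding genes with reads in both, -0.02 and 0.0047. Length and the log2 SXL over SSX itself had -0.15 across the 36 and -0.10 across the coding genes. Only 1 listed coding gene was shorter than 350 bases. How far recovery of short RNA by library moves the SXL and SSX values was not tested. Without SSX library 1, 5 RNAs were higher with SXL in edgeR, and without SSX library 3 also 5. These counts do not test recovery. Library 1 held the highest SSX value of all 5 short RNAs, so leaving it out raises their log2 SXL over SSX.

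**Figure D3:**
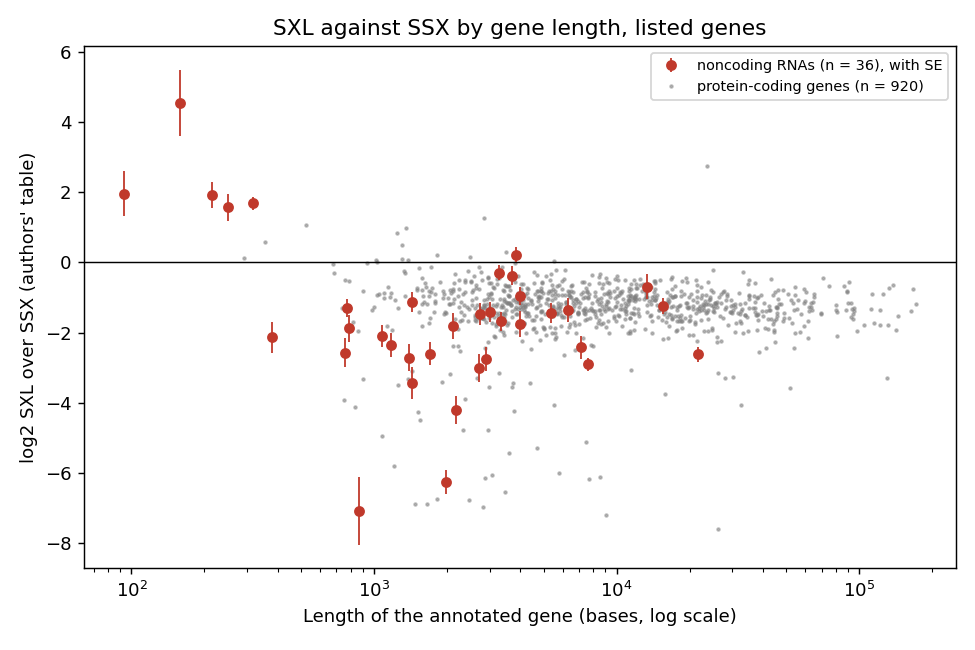
The log2 SXL over SSX from the authors' deposited table against the length of the annotated gene in bases (log scale), for the 36 noncoding RNAs (red, bars are SE) and the 920 listed coding genes (grey). The 5 shortest RNAs lie between 1.57 and 4.56, and the longest, Hsromega, at -2.61.

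Of 20 RefSeq lncRNAs of 380 bases and longer, 16 were higher with SSX, which is not above the 91.1% of listed coding genes. Their median log2 SXL over SSX, from the authors' deposited table, was -1.95. Hsromega (FBgn0001234, 3R, 21296127 to 21317836, plus strand) is a nuclear heat shock transcript that organises omega speckles, where hnRNP proteins gather. Its normalized counts were 1284 and 1609 with SXL, 7889, 8062 and 10921 with SSX, and 372 and 382 with GFP. The 3 groups did not overlap, SSX was highest, and the libraries within a group differed little. Its log2 SXL over SSX was -2.61 (SE 0.22, adjusted p = 7.9e-31) in the authors' deposited table.

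In RefSeq 4 of the 36 contain a microRNA gene, Hsromega with mir-4951 among them. All 4 were higher with SSX, as were 91.1% of listed coding genes, so the count says nothing particular about them. CR43459 (FBgn0263413, 3R, 10093761 to 10101356, plus strand) is the primary transcript of mir-277, a regulator of branched-chain amino acid breakdown, and mir-34, known for its role in ageing. Its normalized counts were 438 and 512 with SXL, 3233, 3432 and 4067 with SSX, and 169 and 174 with GFP. These groups too lay apart, and the log2 SXL over SSX was -2.90 (SE 0.19, adjusted p = 2e-51) in the authors' deposited table.

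CR45054 (FBgn0266414, 3R, 10083381 to 10090525, plus strand) lies 3235 bases upstream of CR43459 on the same strand, with mir-317 in the gap between them. It had normalized counts of 173 and 186 with SXL, 643, 881 and 1443 with SSX, and 11.3 and 49.8 with GFP. SSX was again highest, and its log2 SXL over SSX was -2.43 (SE 0.33, adjusted p = 1.7e-11) in the authors' deposited table.

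CR43334 (FBgn0263039, 3L, 628435 to 643900, plus strand) is the primary transcript of bantam, a microRNA that promotes growth and blocks apoptosis. Normalized counts were 796 and 918 with SXL, 1675, 1902 and 2517 with SSX, and 361 and 374 with GFP. SSX was highest in each library and SXL lay above GFP, and its log2 SXL over SSX of -1.24 (SE 0.22, adjusted p = 3.5e-07) in the authors' deposited table was close to the median of listed coding genes. CR43423 (FBgn0263342, 3L, 637486 to 638568, minus strand) lies wholly within that span on the other strand and had -2.10 (SE 0.31, adjusted p = 2.3e-10) in the authors' deposited table. CR43857 (FBgn0264439, 2L, 7423820 to 7425932, plus strand) contains mir-275, with mir-305 just beyond its end. It had normalized counts of 130 and 113 with SXL, 262, 366 and 679 with SSX, and 33.9 and 41.5 with GFP, and the authors' deposited table gave it a log2 SXL over SSX of -1.81 (SE 0.37, adjusted p = 1.3e-05).

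The widest gaps in favour of SSX belonged to RNAs with few or no reads in the SXL and GFP libraries. CR44179 (FBgn0265068, 3R, 25491285 to 25493262, minus strand), an antisense RNA that overlaps the coding gene CG5112, had normalized counts of 3.00 and 5.84 with SXL, 401, 377 and 332 with SSX, and 0 and 8.30 with GFP. SXL and GFP overlapped and SSX stood far above both, with a log2 SXL over SSX of -6.27 (SE 0.34, adjusted p = 1.8e-72) in the authors' deposited table. CR45140 (FBgn0266633, 2R, 12867609 to 12869783, plus strand), antisense to CG17574, showed the same order at a lower level, with 7.21 and 4.17 with SXL, 119, 88.0 and 128 with SSX, and 11.3 and 0 with GFP. Its log2 SXL over SSX was -4.20 (SE 0.39, adjusted p = 8e-24) in the authors' deposited table. CR44566 (FBgn0265759, 3L, 17631390 to 17632253, plus strand) had no read in either SXL or either GFP library and normalized counts of 39.6, 30.4 and 39.0 with SSX. Against a floor of 3 reads over the SXL group it was at least 83.9-fold higher with SSX. Against the same floor over the shallower GFP group it was at least 2.53-fold higher. CR44179, CR45140 and CR44566 were in the SSX list alone, so their direction and p-values are not free of the choice.

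The 7 antisense RNAs were all higher with SSX, a count near the 91.1% of listed coding genes. From the authors' deposited table their median log2 SXL over SSX was -2.14. Their values ranged from -6.27 for CR44179 to -1.35 for CR45139 (FBgn0266632, 2R, 3943429 to 3949757, plus strand), which overlaps uex. CR45139 had normalized counts of 148 and 141 with SXL, 227, 368 and 521 with SSX, and 0 and 8.30 with GFP, where it had 1 read. CR44029 (FBgn0264821, chromosome 4, 879374 to 884752, plus strand) had 384 and 431 with SXL, 733, 1173 and 1441 with SSX, and 45.1 and 24.9 with GFP. CR45139 and CR44029 were in both lists, so their levels above GFP with both proteins follow from the choice. The other antisense RNAs were CR44996 (-2.60), CR45623 (-2.14) and CR45466 (-1.88), with adjusted p-values from 9.7e-13 to 8.7e-06, all from the authors' deposited table. The library kit kept strand information, but whether counting used it is not given in the sources used here, so reads of an antisense RNA and of the gene opposite may not be separated.

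For 4 RNAs the test did not tell SXL from SSX. CR44953 (FBgn0266258, 3R, 29755190 to 29759040, minus strand), whose nearest gene on the right is kay, the fly Fos gene, had 158 and 159 with SXL, 129, 145 and 131 with SSX, and 22.6 and 16.6 with GFP as normalized counts. Both SXL values were above the SSX values by a small margin, and the log2 SXL over SSX was 0.23 (SE 0.21, adjusted p = 0.43) in the authors' deposited table. CR42549 (FBgn0260722, 3R, 9548104 to 9551806, minus strand), within the gene mura, had 822 and 1029.6 with SXL, 901, 1510.2 and 1199 with SSX, and 135 and 66.4 with GFP. The groups of CR42549 overlapped (log2 -0.38, SE 0.27, adjusted p = 0.27 in the authors' deposited table). Its sign turned in edgeR under TMM and equal totals over the listed genes. CR45973 had -0.29 (SE 0.22, adjusted p = 0.30) and CR43963 had -0.69 (SE 0.36, adjusted p = 0.12) in the authors' deposited table; both signs turned under the same scalings. CR43963 was the only one of the 4 whose edgeR value passed (adjusted p = 0.0092), and it missed again without SXL library 2, SXL library 3 or SSX library 3, the last at -0.31.

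Of the RNAs in both lists, 5 were higher with SSX. CR33963 (FBgn0053963, X, 12659462 to 12660632, plus strand) had normalized counts of 262 and 342 with SXL, 944, 1471 and 2341 with SSX, and 45.1 and 41.5 with GFP. No 2 of these groups overlapped, and its log2 SXL over SSX was -2.35 (SE 0.35, adjusted p = 4.3e-10) in the authors' deposited table. CR45517 had -1.31 and CR45102 had -1.13 (adjusted p = 3.9e-06 and 0.00025 in the authors' deposited table), and the other two were CR44029 and CR45139. CR45102 lies 184 bases from Mnt, a partner of the Max transcription factor, with Rala, a small GTPase, on its other side. In the authors' deposited table Mnt (-1.44) and Rala (-1.35) had log2 SXL over SSX values near that of CR45102. Both are listed genes, and the median of listed coding genes was -1.23, so this nearness says nothing particular about the locus.

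Many of these RNAs share their locus with coding genes. In RefSeq 28 of the 36 overlapped another gene and 21 a protein-coding one. For 9 of them the overlapping coding gene was itself in the authors' lists, 3 on the same strand and 6 on the opposite strand, which gives both values. CR44029 and the pseudogene CR43361 both lie opposite unc-13, the gene of a synaptic vesicle priming factor, and had -1.44 and -1.48 beside -1.66 for unc-13 in the authors' deposited table. CR43493 lies opposite l(1)G0196, with -1.42 and -1.69 in the authors' deposited table. In the authors' deposited table pncr013:4 had -0.96 and the kinase gene Asator, on the opposite strand, had -1.16. CR45018 had -1.76 and IP3K2, an inositol trisphosphate kinase gene on the same strand, had -1.19 in the authors' deposited table. The median of listed coding genes was -1.23, so like values within these pairs say nothing particular about them.

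By the authors' deposited table CR34335 (1.57) and CG32791 (-1.12) had opposite signs, although CR34335 lies within CG32791 on the same strand. RefSeq calls CG32791 DIP-alpha, a gene for a cell surface immunoglobulin protein. In the authors' deposited table CR44977 had -3.43 (SE 0.46) and brat, a translational repressor gene on the opposite strand, had -1.31 (SE 0.18). Tis11, which encodes a protein that binds AU-rich elements, holds CR33963 on the same strand, and in the authors' deposited table CR33963 had -2.35 and Tis11 had -1.09. CR45466 partly overlaps Cyp6v1, a cytochrome P450 gene, with -1.88 for CR45466 and -1.19 for Cyp6v1 in the authors' deposited table. These differences within pairs were not tested, and reads over shared bases cannot be assigned to either gene from the deposited tables.

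**Figure D4:**
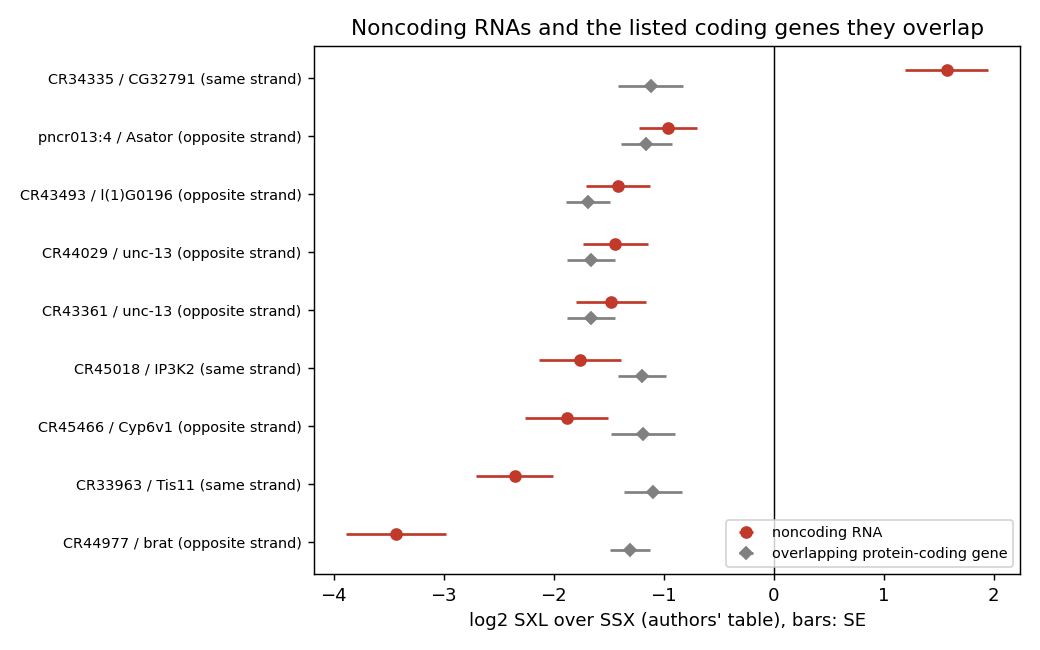
The log2 SXL over SSX (authors' deposited table, bars are SE) of 9 noncoding RNAs (red circles) and of the listed coding gene each overlaps (grey diamonds), with the strand of the pair in the label. CR34335 lies right of 0 while its coding partner lies left of it; CR44977 lies furthest left, at -3.43.

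Of the 72 nearest genes on either side of the 36 RNAs, 18 were in the authors' lists, beside 956 of the 17559 genes in the full tables. The 18 are not all separate coding genes. They include CR43963, CR45623, CR44029 and CR43361, which are among the 36, and CG4004 counts for both CR45623 and CR44619. Whether listed genes lie together was not tested. Near the Smr locus on the X lie 3 RNAs in a row: CR43963 within Smr, CR45623 partly overlapping it, and CR44619 beyond the listed gene CG4004. In the authors' deposited table these had -0.69, -2.14 and -3.00 as log2 SXL over SSX, and CG4004 had -2.02. CR44619 (FBgn0265830, X, 12751867 to 12754571, plus strand) had normalized counts of 38.1 and 49.0 with SXL, 289, 230.2 and 578 with SSX, and 0 and 8.30 with GFP. SSX was above both other groups in every library, and SXL was above both GFP values.

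The remaining RNAs were higher with SSX. The 3 pseudogenes had log2 SXL over SSX values of -2.72 (CR40354), -1.68 (CR43281) and -1.48 (CR43361) in the authors' deposited table, with adjusted p-values of 8.4e-11, 3.9e-08 and 2.7e-05. CR40354 (FBgn0058354, 3L, 25201942 to 25203341, plus strand) had normalized counts of 26.4 and 37.6 with SXL, 138, 203 and 318 with SSX, and 0 and 8.30 with GFP. The lncRNAs CR45531 (-2.76) and CR45650 (-2.57) were also higher with SSX in the authors' deposited table. CR45650 had 3 GFP reads, all in library 2, and its ratio of SXL to GFP was 1.56 (95% counting interval 0.524 to 7.65).

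With SXL the 5 shortest RNAs had the highest levels per length of the 36. This was not particular to SXL: all of them but CR43701, which had no GFP read, were also highest with GFP. With SSX the highest were CR43264, snRNA:LU and CR34335. Normalized counts per kilobase of span were 315483 with SXL, 7017 with SSX and 9690 with GFP for snRNA:LU. CR43264 had 24879 with SXL, 7675 with SSX and 1477 with GFP per kilobase. Among the long RNAs CR33963 had the highest level with SSX, 1354 per kilobase, with 258 with SXL and 37.0 with GFP. Hsromega had 66.6 with SXL, 413 with SSX and 17.4 with GFP per kilobase. Since the span of a long gene includes introns, its level per kilobase is understated where these are spliced out.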

How the data were processed

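Per the labels' protocols, precipitated RNA was freed of ribosomal RNA and sequenced in paired ends after stranded low-input library preparation. Per the submitters' processing notes the authors used Trimmomatic, TopHat2, featureCounts, DESeq and DESeq2 with build BDGP6; their versions and roles are not given in the sources used here. Per the file headers, the authors deposited 3 full tables with a mean normalized signal, a log2 fold change with its standard error, a test score and raw and adjusted p-values for each gene. The deposited lists of enriched genes add read counts for each library. Normalized counts were computed as the count over 1 factor per library, solved by least squares from the counts and the authors' mean normalized signal (3.33 and 3.59 for SXL, 1.87 to 2.15 for SSX, 0.0886 and 0.120 for GFP); 14 other columns of values per library were not used.

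Values, standard errors and adjusted p-values of SXL against SSX are those of the authors' deposited table, adjusted over all 9500 genes tested. edgeR 4.0.16 (quasi-likelihood, R 4.3.3, Benjamini-Hochberg) and DESeq2 1.42.0 were run with the authors' factors on the counts of all 956 listed genes, to see how values depend on single libraries. The edgeR script was tested on simulated data with the same spread for every gene, which does not cover RNAs of wider spread. The prior degrees of freedom of edgeR were infinite for all 956 genes, so its p-values use a common spread. The planned and added alternatives covered test, scaling, filter, threshold, libraries and a replicate block. Names were matched to RefSeq (Release 6) by symbol or synonym for all 956 listed genes; 930 had the same span there. No sequence is shown. Of other noncoding RNAs picked for comparison, those without a name in the tables used here were not analysed here.

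The noncoding RNAs and the lists were chosen with earlier results of these data known. Described by name are all RNAs of the SXL list, all pseudogenes, the highest and lowest 6 lincRNAs by log2 SXL over SSX, those overlapping listed coding genes, and others chosen after their values were seen for their microRNA, antisense or neighbour annotation. Separate cultures are not stated in the labels, and p-values then measure only the spread between these samples, which may be technical. In every group the replicate libraries differed by more than sampling noise (chi-square per degree of freedom of 1.27 for the GFP pair, p = 2e-06, and more for the others), so none was counted as a duplicate. Analyses used Python 3.11.15, pandas 2.3.3, numpy 2.4.6 and scipy 1.17.1, and figures matplotlib 3.10.9.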

Additional observations from a re-analysis of the deposited data

How the results depend on the processing

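The authors' deposited table gave 5 RNAs higher with SXL and 27 higher with SSX. On the deposited counts edgeR gave 5 and 28. Centring on the median of all tested genes or an adjusted p under 0.01 kept the numbers 5 and 27, and keeping RNAs with a mean of 50 normalized counts or more left 4 and 24. Scaling over the listed genes alone moves the median of all listed genes (from -1.24 with the authors' factors to 0.02 with TMM and -0.21 with equal totals), so it cannot test direction: the edgeR calls on the SXL side and the SSX side numbered 8 and 14 under TMM, and 8 and 18 under equal totals. Under TMM the values of CR45102 (0.14), pncr013:4 (0.29), CR43963 (0.59), CR43334 (0.0192), CR42549 (0.89) and CR45973 (0.95) changed sign, and under equal totals those of pncr013:4 (0.0615), CR43963 (0.36), CR42549 (0.65) and CR45973 (0.70). Of these CR42549 and CR45973 became calls on the SXL side (adjusted p = 0.00081 and 0.0028 under TMM, 0.0057 and 0.032 under equal totals), as did CR44953, whose sign did not change. DESeq2, a filter on low counts and a fit without GFP each gave 5 and 28. Leaving out 1 library at a time gave 4 to 5 higher with SXL and 27 to 29 higher with SSX; the fit without SXL library 2 lost CR43701. The robust edgeR fit, added after the data were seen, gave 4 and 28; it kept snRNA:LU (adjusted p = 0.020) and lost CR43701 (adjusted p = 0.12). With the column number as a replicate block edgeR gave 5 and 29; same-numbered columns deviated together weakly (correlations -0.03 to 0.20), and nothing in the labels pairs them. Depth limits the GFP side, where 1 read is worth 8.30 to 11.3 normalized counts.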
